A study of Rattus norvegicus with 70 samples.

Results

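Bisphenols can act on transcription through receptors that bind small lipophilic molecules, and 9 such receptors of the rat were followed here through every library of the series. The members were the rows of the deposited read count table with the symbols Esr1, Esr2, Gper1, Pgr, Esrra, Esrrg, Nr1i2, Nr1i3 and Ahr, which are 9 of its 17048 rows. Esr1 and Esr2 encode the nuclear estrogen receptors, Gper1 a membrane receptor for estrogen, and Pgr the progesterone receptor, itself a classical estrogen-induced gene. Esrra and Esrrg encode estrogen-related receptors, orphan receptors of mitochondrial and oxidative genes that do not bind estradiol. Nr1i2 encodes PXR and Nr1i3 encodes CAR, the xenobiotic sensors of the liver, and Ahr encodes the aryl hydrocarbon receptor.

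Sprague-Dawley rats were exposed through the dam and then directly by the oral route. Dams received vehicle, BPA at 500 mg/kg/day, or a mixture (Mix) totalling 500 mg/kg/day, made of 160 mg/kg/day BPA, 160 mg/kg/day BPF and 180 mg/kg/day BPS. Dam dosing ran from gestation day 6 to lactation day 6. Litters were culled on postnatal day 4 to 3 pups of each sex, and pups received the same agent at 250 mg/kg/day from postnatal day 7 to day 63, when they were killed. Male and female kidney, liver and thyroids, testes and ovaries gave 70 libraries of 3′ mRNA tags, with 3 libraries per organ, sex and treatment except for female kidney, where vehicle and BPA had 2 each. The labels do not give the vehicle's composition, the litter of a rat or the stage of the estrous cycle, so littermates may count as separate replicates. Every BPA and Mix comparison uses the same vehicle libraries.

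The nuclear receptors among the members reside in or move to the nucleus on binding a ligand and recruit coactivators to target genes. PXR and CAR act as partners of RXR and raise cytochrome P450, conjugation and transporter genes, with hepatocytes as their main site of expression. AHR is held in the cytoplasm by a chaperone complex, moves to the nucleus when a ligand binds, pairs with ARNT and turns on Cyp1 genes.

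Promoter windows show the sequence from which 3 of the receptors discussed most below are transcribed. They are shown because the results turn on Ahr, Nr1i3 and Esrra. Each runs from 250 bases before to 50 bases after the annotated start, 5′ to 3′ on the gene's strand (RefSeq, GRCr8), and 8 of the 9 members had such a window. The windows are chr6:57998852-57999151 (minus strand) for Ahr, chr13:86165170-86165469 (plus strand) for Nr1i3 and chr1:213543256-213543555 (minus strand) for Esrra. Capitals mark matches, on either strand, to GCGTG (the core bound by the AHR complex), AGGTCA (the nuclear receptor hexamer), GGTCANNNTGACC (the estrogen response element, whose spacer can overlap GCGTG) or GGGCGG (the GC box).
Ahr: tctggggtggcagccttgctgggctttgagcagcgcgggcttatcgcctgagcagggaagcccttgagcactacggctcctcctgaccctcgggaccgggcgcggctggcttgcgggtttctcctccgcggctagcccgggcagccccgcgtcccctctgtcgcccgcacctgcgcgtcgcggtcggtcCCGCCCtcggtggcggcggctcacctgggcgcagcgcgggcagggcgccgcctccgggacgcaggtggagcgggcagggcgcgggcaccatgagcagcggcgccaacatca
Nr1i3: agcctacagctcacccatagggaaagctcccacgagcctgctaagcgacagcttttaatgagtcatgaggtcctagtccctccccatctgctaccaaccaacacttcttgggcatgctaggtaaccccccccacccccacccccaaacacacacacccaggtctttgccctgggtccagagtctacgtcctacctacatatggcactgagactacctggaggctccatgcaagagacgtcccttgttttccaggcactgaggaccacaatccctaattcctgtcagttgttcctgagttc
Esrra: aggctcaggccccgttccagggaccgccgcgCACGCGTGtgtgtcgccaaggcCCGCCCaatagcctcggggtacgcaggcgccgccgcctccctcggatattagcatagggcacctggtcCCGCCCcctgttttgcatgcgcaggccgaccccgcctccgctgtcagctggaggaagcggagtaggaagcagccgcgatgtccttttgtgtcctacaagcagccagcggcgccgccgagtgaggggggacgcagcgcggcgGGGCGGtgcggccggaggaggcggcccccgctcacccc
The Esrra window held 5 matches: GCGTG at bases 32 to 36 (minus) and 35 to 39 (plus), which overlap each other, and 3 of GGGCGG, at bases 54 to 59 (minus) and 263 to 268 (plus) among them, counted from the first base printed. The Ahr window held 1 match, GGGCGG at bases 190 to 195 (minus), and its GC content was 74.7%. The Nr1i3 window held none of the 4 motifs and its GC content was 54.7%. Of 33469 RefSeq windows of this length, 29.7% held GCGTG, 16.2% AGGTCA, 33.1% GGGCGG and 0.0269% GGTCANNNTGACC.

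Total counts per library ranged from 4803807 to 10929957. Levels are in CPM, counts scaled to library size with TMM factors within each organ and sex, and because the tags come from 3′ ends with no length scaling, levels were compared within a gene and not between genes. Each organ's libraries carried its own markers: the hepatocyte marker sum was 62881 CPM or more in every liver library. Some libraries also carried markers of another organ. Female thyroid vehicle replicates 1 and 2 held hepatocyte marker sums of 3609 and 1339 CPM and male germ cell sums of 3320 and 1878 CPM, against 61.0 and 0.274 CPM in replicate 3, and male thyroid BPA replicate 1 held a male germ cell sum of 13819 CPM. Male thyroid vehicle replicate 3 held sums of 1317 and 647 CPM for the same lists, and ovary vehicle replicates 1 and 2 held 218 and 388 CPM for hepatocytes and 250.04 and 582 CPM for male germ cells. In male kidney the male germ cell sums were 233 to 453 CPM in vehicle, 37.3 to 200 CPM with BPA and 836 to 1713 CPM with Mix. Skeletal muscle marker sums in thyroids ran from 2.99 to 5006 CPM. The share of counts in ribosomal RNA rows also moved with treatment in places, from a mean of 2.58% in male kidney vehicle to 30.2% with BPA and from 1.63% in female thyroid vehicle to 17.3% with Mix.

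The receptors fell into those counted everywhere, those counted mainly in liver and those near the limit of detection. Esrra and Ahr had counts in all 70 libraries, with 106349 and 12596 counts in total. Nr1i2 had 9733 counts, of which 8553 came from liver, and Nr1i3 had 3140, of which 2944 came from liver. Pgr had 289 counts (260 in thyroids), Esr1 had 257 (178 in testes), Esrrg had 158 (120 in kidney) and Esr2 had 129 (120 in ovaries). Gper1 had 0 counts in all 70 libraries, which allows a level of up to 0.00561 plain CPM over all libraries together and up to 0.624 plain CPM in the shallowest one, counting error only. A 0 in such data limits 3′ tags assigned to the gene and says nothing of the protein.

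**Figure D1:**
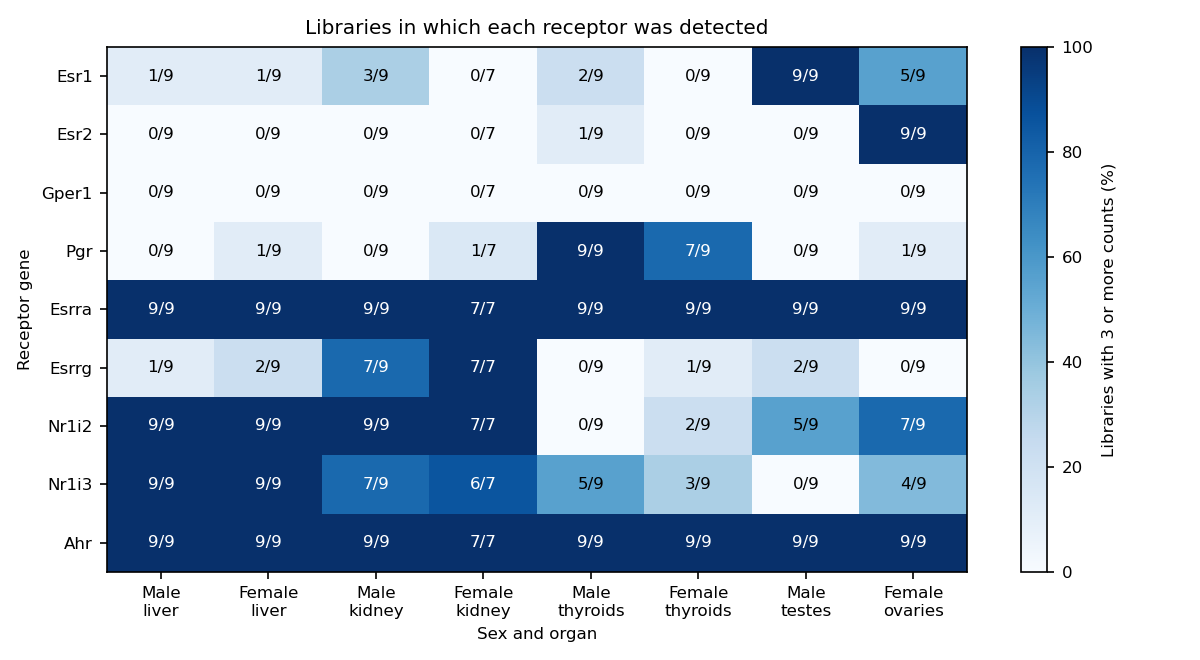
Detection of the 9 receptors by organ. Gper1 stayed at 0 in all 70 libraries, Esr2 was counted in 9 of 9 ovary libraries and 1 library of another organ, and Esrra and Ahr were counted in every library.

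Across the 16 comparisons of BPA or Mix with vehicle within an organ and sex, 1 of 54 receptor tests was called (edgeR's quasi-likelihood F test, Benjamini-Hochberg adjusted p under 0.05), Esrra in the ovary with Mix. An unadjusted p under 0.05 was reached by 16 of the 54 (29.6%), against 13.0% of all gene tests in the same comparisons, and DESeq2 called 6 of the 54. The 16 are not separate evidence: several were of the single row Esrra, and BPA and Mix shared vehicle libraries. Over all genes DESeq2 also called more, 12 to 1423 genes per comparison within an organ and sex, against 0 to 991 with edgeR. Of all genes tested, BPA against vehicle called 0.136% in male kidney, 0.228% in male liver, 0% in testes, 0% in male thyroids, 0% in female kidney, 0.419% in female liver, 6.79% in ovaries and 0% in female thyroids. Mix against vehicle called 0.0273% in male kidney, 0.321% in male liver, 0% in testes, 0% in male thyroids, 0% in female kidney, 0.0523% in female liver, 9.12% in ovaries and 0.00899% in female thyroids. The filter on low counts left 3 receptors tested in each kidney, thyroid and testis fit and 4 in each liver fit and in the ovary fit.

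**Figure D2:**
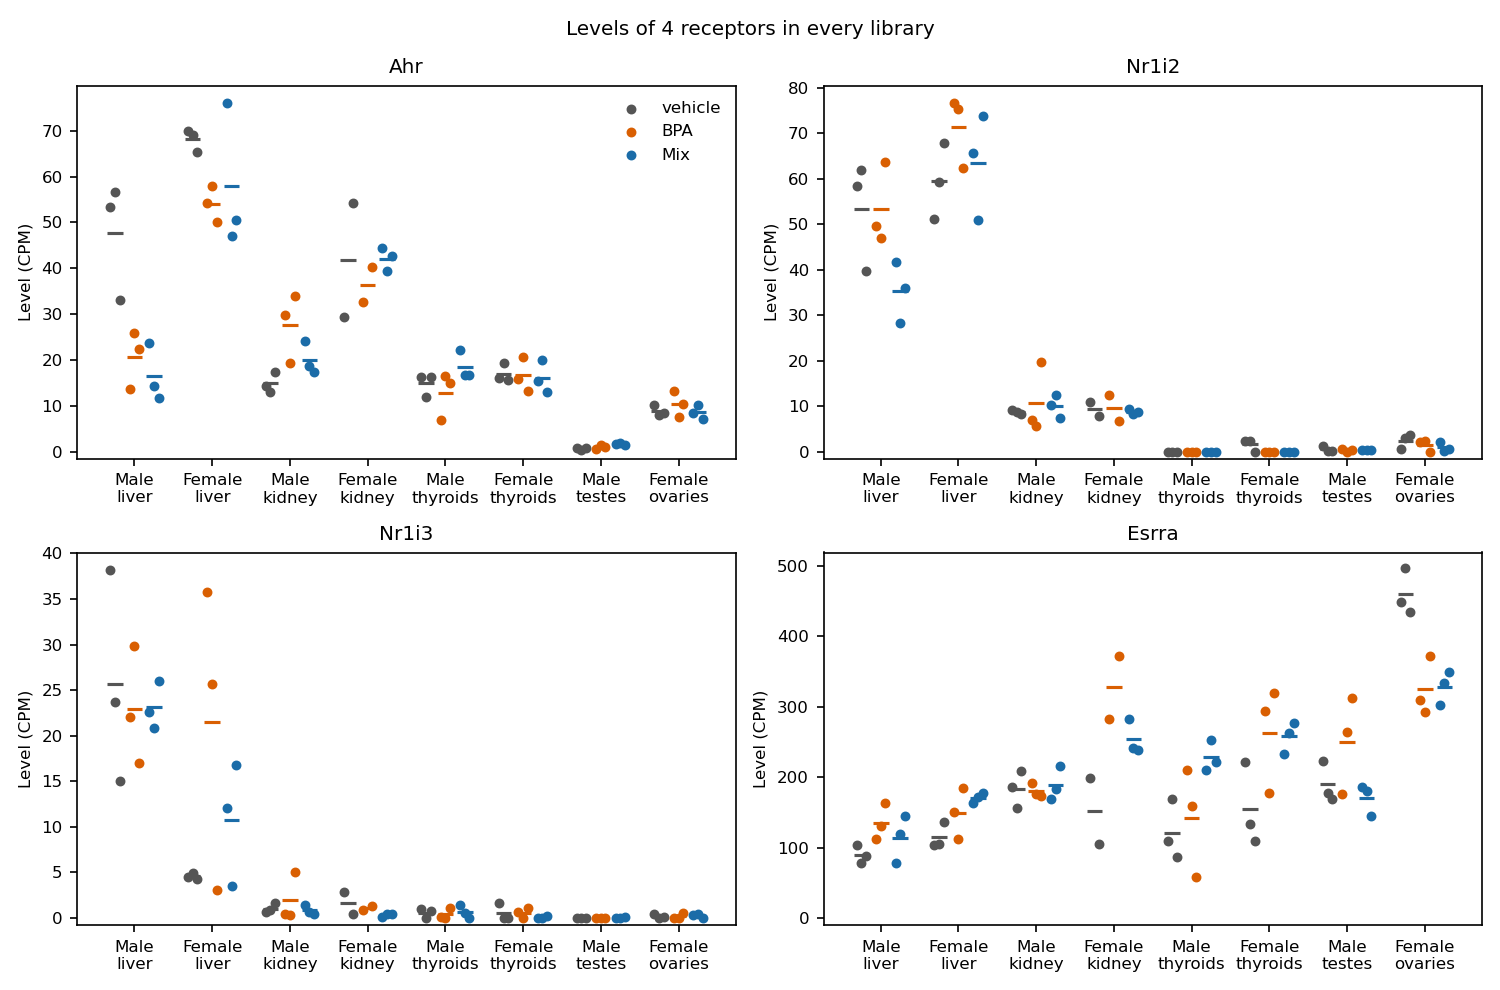
Levels of Ahr, Nr1i2, Nr1i3 and Esrra in each library (CPM, linear axis), by organ, sex and treatment. Ovary Esrra in vehicle (435 to 497 CPM) lay above every treated ovary (293 to 372 CPM), and male liver Ahr in vehicle (33.2 to 56.7 CPM) lay above every treated male liver (11.8 to 25.8 CPM).

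Esr1, the estrogen receptor through which most uterine and pituitary estrogen action runs, was counted steadily in the testis alone. Its level there was 1.83, 2.74 and 1.91 CPM in vehicle, 1.94, 3.28 and 1.55 CPM with BPA, and 1.12, 3.44 and 2.27 CPM with Mix. The groups overlapped throughout. The log2 difference from vehicle was 0.06 ± 0.45 (SE, 95% interval -0.91 to 1.02) with BPA and 0.08 ± 0.45 (-0.89 to 1.05) with Mix, intervals that reach a change of about 1 log2 unit either way. In the ovary Esr1 had 20 counts over 5 of 9 libraries and never exceeded 0.791 CPM. The liver maximum was 0.907 CPM and the kidney maximum 0.771 CPM. The largest thyroid value, 1.39 CPM, was in male BPA replicate 1, the library with the high male germ cell sum.

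Esr2, the estrogen receptor of granulosa cells, was an ovarian transcript in these data. Ovary vehicle libraries held 1.96, 2.94 and 4.08 CPM, BPA libraries 2.17, 1.90 and 2.13 CPM, and Mix libraries 1.04, 1.19 and 0.797 CPM. All 3 Mix values lay below all 3 vehicle values and all 3 BPA values, while BPA and vehicle overlapped. The counts behind them were 13, 16 and 25 in vehicle and 8, 9 and 5 with Mix. The Mix difference was -1.55 ± 0.63 log2 (95% interval -2.91 to -0.19, unadjusted p = 0.0290, edgeR adjusted p = 0.143), and the BPA difference was -0.53 ± 0.60 (-1.83 to 0.78), so neither passed. The summed granulosa markers of the same libraries ran from 822 to 1144 CPM in vehicle, 1030 to 1937 CPM with BPA and 930 to 1012 CPM with Mix. Fewer cells of a type and less RNA per cell cannot be told apart in whole organs. Outside the ovary Esr2 had 9 counts in male thyroid vehicle replicate 2 and 0 elsewhere. The plain mean of the ovary vehicle libraries was at least 20.7-fold higher than in female liver or thyroid vehicle and at least 10.2-fold higher than in female kidney vehicle, against the 3 counts that a 0 over each group allows.

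Pgr was counted mainly in thyroids, with 260 of its 289 counts there over 16 of 18 libraries. Male thyroids held 0.403, 2.13 and 3.65 CPM in vehicle, 1.28, 3.48 and 4.43 CPM with BPA, and 2.70, 0.716 and 1.40 CPM with Mix. Female thyroids held 1.26, 0 and 2.74 CPM in vehicle, 0.412, 4.36 and 1.82 CPM with BPA, and 0.597, 0.960 and 0 CPM with Mix. Libraries of 1 group differed by more than the groups did. The female Mix difference of -1.32 ± 1.64 log2 had an interval from -4.96 to 2.32, and the other differences also spanned 0. The ovary, where Pgr is known to be induced before ovulation, gave 11 counts in 3 of 9 libraries.

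Esrra was the only receptor called under treatment. Ovary levels were 449, 497 and 435 CPM in vehicle, 310, 293 and 372 CPM with BPA, and 303, 333 and 349 CPM with Mix. Each treated library lay below each vehicle library. Esrra fell by 0.49 ± 0.14 log2 with Mix (95% interval -0.79 to -0.18, edgeR adjusted p = 0.0483), from a mean of 460 ± 32.6 CPM (SD, n = 3) to 328 ± 23.5 CPM (SD, n = 3). The BPA difference was of like size, -0.50 ± 0.14 (-0.81 to -0.20), and its adjusted p of 0.0508 missed the threshold. The Mix call was lost in all 9 fits that each left out 1 ovary library (adjusted p from 0.0539 to 0.164). The ribosomal RNA share of these ovaries was 20.7% to 29.4% in vehicle, 12.4% to 19.1% with BPA and 18.7% to 23.8% with Mix. With that share as a covariate the values were -0.42 (edgeR adjusted p = 0.0991) for Mix and -0.33 (adjusted p = 0.499) for BPA.

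The Esrra counts cannot be told apart from those of its neighbour. In RefSeq GRCr8, Esrra overlaps Trmt112, a methyltransferase cofactor encoded on the opposite strand, and no source used here states whether counting used strand. The ratio of Esrra to Trmt112 counts stayed between 0.501 and 1.08 over the 70 libraries with a median of 0.856, and ranged from a median of 0.752 in thyroids to 0.980 in kidney. Trmt112 differed in the ovary by -0.43 ± 0.14 log2 with Mix (edgeR adjusted p = 0.0673) and by -0.45 ± 0.14 with BPA (adjusted p = 0.0697).

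**Figure D3:**
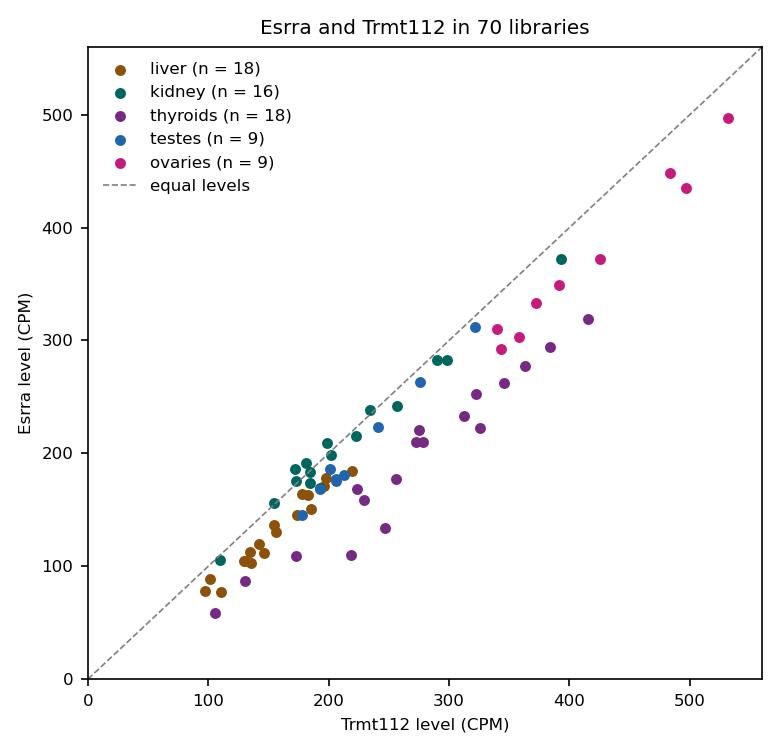
Levels in CPM of Esrra against Trmt112 in the 70 libraries, by organ. The points lie near 1 line in every organ, with a ratio of counts between 0.501 and 1.08.

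Outside the ovary no Esrra difference passed the test, and most were above 0. Female kidney held 198 and 106 CPM in vehicle, 283 and 372 CPM with BPA, and 282, 242 and 239 CPM with Mix. All 5 treated libraries exceeded both vehicle libraries. The BPA difference was 1.11 ± 0.29 log2 (0.44 to 1.77, edgeR adjusted p = 0.157) and Trmt112 gave 1.13 ± 0.30. Without vehicle replicate 1 the BPA difference was 1.62 ± 0.24 with an adjusted p of 0.00901, and the Mix difference 1.27 ± 0.22 with an adjusted p of 0.0259. Those fits leave 1 vehicle library, which is assumed to vary like the other groups. The ribosomal RNA share of the 2 vehicle libraries was 19.2% and 37.1%, against 17.2% to 20.9% in the treated ones, and with the share as a covariate the BPA difference was 1.66 ± 0.19 (adjusted p = 0.00394). Male kidney held 186, 156 and 209 CPM in vehicle and 191, 176 and 173 CPM with BPA, which overlapped (-0.03 ± 0.16 log2, -0.38 to 0.33). The test of the difference between the sexes gave 1.14 ± 0.32 log2 (0.45 to 1.82, edgeR adjusted p = 0.0544).

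Thyroid Esrra was 109, 169 and 86.5 CPM in male vehicle and 210, 252 and 222 CPM with Mix. It was 221, 133 and 110 CPM in female vehicle and 233, 263 and 277 CPM with Mix. With BPA it ran from 58.2 to 210 CPM in males and from 177 to 319 CPM in females, overlapping vehicle in each sex. The female mean was 263 CPM with BPA and 258 CPM with Mix, against 155 CPM in vehicle. Every Mix thyroid exceeded every vehicle thyroid of its sex. Mean Trmt112 went from 176 to 307 CPM in males and from 247 to 340 CPM in females with Mix. Thyroid follicular marker sums were 29322 to 50394 CPM in female vehicle and 53522 to 73781 CPM with Mix. In males they were 71283 to 105750 CPM in vehicle and 62639 to 83468 CPM with Mix. Their part in the Esrra difference was not tested. The mean Mix difference over the sexes was 0.88 ± 0.27 log2 (0.31 to 1.45, edgeR adjusted p = 0.0752), in an organ comparison where 2.18% of genes were called for Mix and 0% for BPA. Without female vehicle replicate 1, a library with liver and germ cell markers, it was 1.05 ± 0.27 (adjusted p = 0.0177). In female thyroids alone the Mix difference was 0.73 ± 0.31, and it was -0.11 ± 0.63 with the ribosomal RNA share as a covariate. Without vehicle replicate 1 the female thyroid difference was 1.14 ± 0.28 with BPA (edgeR adjusted p = 0.0391) and 1.15 ± 0.28 with Mix (adjusted p = 0.0241).

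Liver and testis gave smaller Esrra differences. Male liver held 103, 78.3 and 88.4 CPM in vehicle, 112.5, 130 and 163 CPM with BPA and 77.6, 119 and 145 CPM with Mix, so that BPA stood clear of vehicle (0.59 ± 0.24 log2, edgeR adjusted p = 0.597). Female liver held 104, 105 and 136 CPM in vehicle, 151, 111.5 and 185 CPM with BPA and 164, 171 and 178 CPM with Mix, and only the Mix group stood clear of vehicle there (0.57 ± 0.21 log2, edgeR adjusted p = 0.613). Testes held 223, 177 and 168 CPM in vehicle, 176, 263 and 312 CPM with BPA and 186, 181 and 145 CPM with Mix. Without BPA replicate 1 the testis BPA difference was 0.60 ± 0.15 (adjusted p = 0.0401), against 0.40 ± 0.18 with all libraries.

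Esrrg, an estrogen-related receptor of mitochondria-rich tissue, was counted mainly in kidney, where 15 of 16 libraries had a count. Male kidney held 1.75, 0.686 and 1.87 CPM in vehicle, 1.32, 0.982 and 0 CPM with BPA and 1.26, 0.246 and 0.436 CPM with Mix. Female kidney held 0.809 and 2.01 CPM in vehicle, 0.527 and 1.79 CPM with BPA and 1.40, 1.16 and 1.28 CPM with Mix. The groups overlapped in both sexes. The row was tested only in the fit of both sexes, where the mean Mix difference was -0.68 ± 0.67 log2 (-2.09 to 0.74).

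Nr1i2, which encodes PXR, was a liver transcript with a smaller renal level. Male liver held 58.5, 61.9 and 39.8 CPM in vehicle, 49.6, 46.9 and 63.8 CPM with BPA, and 41.8, 28.4 and 35.9 CPM with Mix. Mix values were in the lower part of the male range and overlapped vehicle. The male Mix difference was -0.60 ± 0.23 log2 (-1.08 to -0.11, edgeR adjusted p = 0.595). Female liver held 51.2, 59.2 and 67.8 CPM in vehicle, 76.6, 75.3 and 62.3 CPM with BPA and 65.7, 50.9 and 73.9 CPM with Mix, which also overlapped. Male kidney lay between 5.57 and 19.8 CPM and female kidney between 6.71 and 12.5 CPM over all treatments. In thyroids Nr1i2 was at 0 in 16 of 18 libraries. The exceptions were female vehicle replicates 1 and 2, at 2.39 and 2.34 CPM, the libraries with hepatocyte sums of 3609 and 1339 CPM. Male vehicle replicate 3, with a hepatocyte sum of 1317 CPM, had Nr1i2 at 0. The plain mean of male liver vehicle was at least 487-fold higher than that of male thyroid vehicle, against the 3 counts a 0 over the group allows. The gene overlaps Gsk3b on the opposite strand, but Gsk3b had 35 counts or more in every thyroid library.

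Nr1i3, which encodes CAR, was the receptor with the widest differences in liver. Male vehicle livers held 38.2, 23.7 and 15.0 CPM and female vehicle livers 4.46, 4.97 and 4.33 CPM, with no overlap. In vehicle rats the level was lower in females by -2.56 ± 0.59 log2 (-3.78 to -1.34, edgeR adjusted p = 0.0125), where 4.23% of all genes differed by sex. The call held in 14 of 18 fits that each left out 1 library and was lost without male vehicle replicate 1 or any 1 of the female vehicle libraries (adjusted p up to 0.0747). Treated males held 22, 29.8 and 17.0 CPM under BPA and 22.6, 20.8 and 26.0 CPM under Mix, within the male vehicle range. Their differences from vehicle were -0.16 ± 0.30 and -0.15 ± 0.30 log2.

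Female livers differed from each other under treatment. BPA libraries held 35.8, 25.7 and 3.09 CPM and Mix libraries 12.1, 3.50 and 16.8 CPM, so that 2 BPA livers reached the male range and 1 lay below every vehicle female. The BPA difference was 2.24 ± 0.66 log2 (0.83 to 3.64, edgeR adjusted p = 0.179), and without BPA replicate 3 it was 2.75 ± 0.46 with an adjusted p of 0.0238. The Mix difference was 1.23 ± 0.66 (-0.17 to 2.64). The interaction of BPA with sex was 2.41 ± 0.78 (unadjusted p = 0.00575, edgeR adjusted p = 0.321). Hepatocyte marker sums were 113755 to 132591 CPM in female vehicle livers, 75972 to 79589 CPM with BPA and 62881 to 107734 CPM with Mix, and their part in the result was not tested. The row overlaps Tomm40l, which had at most 37 counts in any liver library.

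Classical CAR and PXR target genes were read in the same female livers. Cyp2b1, the cytochrome P450 that phenobarbital induces, held 11.3, 3.92 and 1.15 CPM in vehicle and 230, 23 and 2.94 CPM with BPA. Abcc3, a conjugate export pump, held 8.69, 3.16 and 7.50 CPM in vehicle and 61.1, 42.0 and 9.12 CPM with BPA. Cyp2b2, another listed P450, held 31.5, 7.99 and 3.89 CPM in vehicle and 163, 8.68 and 0.464 CPM with BPA. Its BPA replicate 2 lay within the vehicle range and replicate 3 below it. Ephx1 held 285, 209 and 205 CPM in vehicle and 1190, 310 and 303 CPM with BPA, above vehicle in all 3 BPA livers. With Mix, Cyp2b1 was 2.54, 1.42 and 8.76 CPM, within its vehicle range, and Abcc3 was 14.8, 8.03 and 17.5 CPM. Cyp2b1 differed by 3.94 ± 1.13 log2 (edgeR adjusted p = 0.165) and Abcc3 by 2.53 ± 0.55 (adjusted p = 0.0651), neither past the threshold. Over both sexes Abcc3 rose by 1.69 ± 0.36 with BPA (adjusted p = 0.0453). Gstm1, a glutathione transferase, rose in female liver with BPA by 1.2 ± 0.23 (adjusted p = 0.0406), from 567, 552 and 452 CPM to 1576, 828 and 1205 CPM. These genes are members of a list chosen with earlier results of these data known, and the list gave 1 called gene of 19 tested in female liver with BPA (median log2 0.21, against 0.00 for all genes). Of all genes 0.419% were called there.

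**Figure D4:**
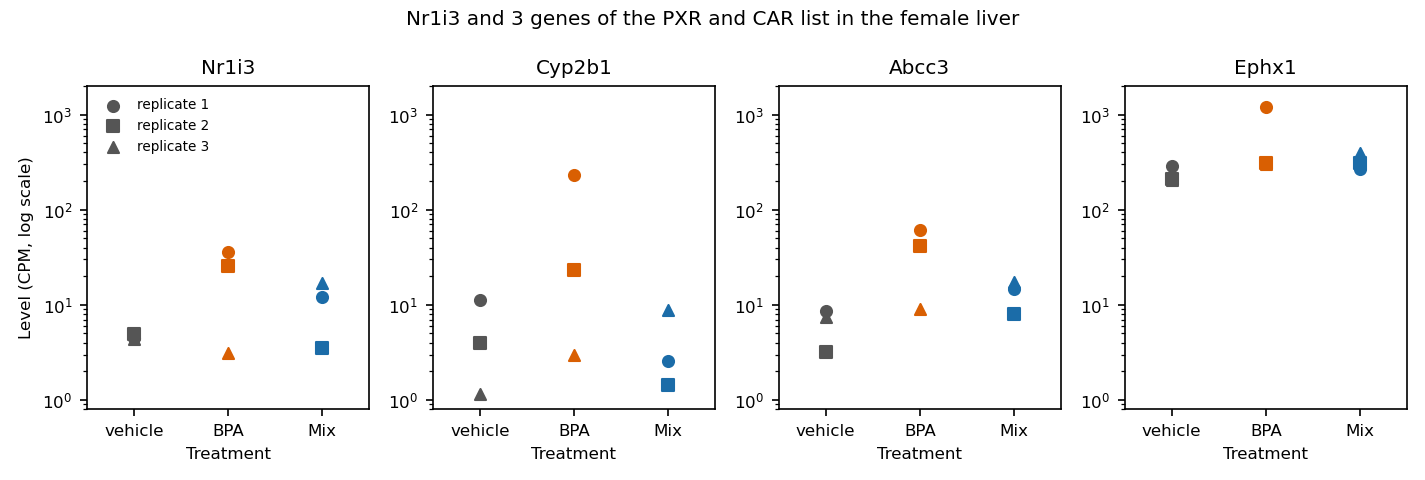
Levels (CPM, log axis) of Nr1i3 and of target genes of CAR and PXR in each female liver library. BPA replicates 1 and 2 stand above vehicle for Nr1i3 (35.8 and 25.7 CPM), whereas replicate 3 lies at 3.09 CPM.

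Nr1i3 was scarce elsewhere. All 16 kidney libraries had a count, with the highest level, 5.05 CPM, in male BPA replicate 3. Testes had 1 count in 9 libraries, and the plain mean of male liver vehicle was at least 282-fold higher than that of testis vehicle, which was at 0.

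Ahr showed its widest treatment difference in male liver. Vehicle libraries held 53.4, 56.7 and 33.2 CPM, BPA libraries 13.6, 25.8 and 22.5 CPM, and Mix libraries 23.7, 14.2 and 11.8 CPM. All 6 treated males lay below all 3 vehicle males. The means were 47.7 ± 12.7 CPM, 20.6 ± 6.34 CPM and 16.6 ± 6.27 CPM (SD, n = 3 each). The Mix difference was -1.53 ± 0.31 log2 (-2.19 to -0.87) with an edgeR adjusted p of 0.0551, which missed the threshold. The BPA difference was -1.21 ± 0.31 (-1.87 to -0.56) with an adjusted p of 0.223. DESeq2 gave adjusted p = 0.000628 for Mix and 0.0316 for BPA on the same counts. Leaving out 1 library at a time gave adjusted p from 0.0198 to 0.250 for Mix, under 0.05 without vehicle replicate 3, BPA replicate 1 or Mix replicate 1.

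Female liver Ahr was 69.9, 69.2 and 65.3 CPM in vehicle, 54.2, 58.0 and 50.1 CPM with BPA, and 76.0, 47.1 and 50.6 CPM with Mix. BPA females lay below all vehicle females and Mix females on both sides. The differences were -0.33 ± 0.21 log2 (edgeR adjusted p = 0.584) and -0.23 ± 0.21 (adjusted p = 0.915). The interaction with sex was 0.89 ± 0.38 for BPA (adjusted p = 0.482) and 1.29 ± 0.38 for Mix (unadjusted p = 0.00289, adjusted p = 0.354), so the sexes were not shown to differ in response. Over the sexes the mean was -0.77 ± 0.19 for BPA (adjusted p = 0.106; DESeq2 0.0180) and -0.88 ± 0.19 for Mix (adjusted p = 0.0824; DESeq2 0.00424).

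Male kidney differed the other way. Ahr was 14.2, 13.0 and 17.3 CPM in vehicle, 29.8, 19.3 and 33.9 CPM with BPA, and 24.2, 18.7 and 17.3 CPM with Mix. The BPA values were above every vehicle value. The BPA difference was 0.89 ± 0.26 log2 (0.33 to 1.46, edgeR adjusted p = 0.104; DESeq2 0.0363). The ribosomal RNA share of the same libraries was 1.71% to 3.50% in vehicle and 16.4% to 37.2% with BPA, and with it as a covariate the difference was 0.03 ± 0.38. Without Mix replicate 1 the adjusted p was 0.0455 at an unchanged difference of 0.89.

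In kidney the untreated sexes differed. Female vehicle kidneys held 29.3 and 54.2 CPM of Ahr, both above the male vehicle range, and treated females held 32.6 and 40.2 CPM with BPA and 44.3, 39.3 and 42.6 CPM with Mix. The female level was higher by 1.58 ± 0.27 log2 (1.00 to 2.15, edgeR adjusted p = 0.00265), in a comparison that called 6.13% of genes. The call held in 15 of 16 fits with 1 library left out. Without female vehicle replicate 2 the difference was 1.06 with an adjusted p of 0.0735, with 1 female vehicle library left and assumed to vary like the other groups. The ribosomal RNA share was 19.2% to 37.1% in female vehicle kidneys against 1.71% to 3.50% in male ones, and its part in the difference was not tested. Cyp1a1, the most AHR-responsive gene known, was at 0 counts in all 3 male vehicle kidneys and at 4.85 and 3.10 CPM in the female ones. It was called (edgeR adjusted p = 0.00489), and no other gene of the AHR target list was called in this comparison. A link between Cyp1a1 and the Ahr level was not tested.

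Thyroid, gonad and other Ahr levels gave no call. Thyroids lay between 6.94 and 22.1 CPM and ovaries between 7.18 and 13.3 CPM over all treatments. Testes held 0.755, 0.353 and 0.703 CPM in vehicle, 0.646, 1.52 and 0.901 CPM with BPA and 1.54, 1.91 and 1.52 CPM with Mix. Every Mix testis exceeded every vehicle testis, from at most 15 counts, and the difference was 1.45 ± 0.52 log2 (0.34 to 2.57, edgeR adjusted p = 0.799).

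**Figure D5:**
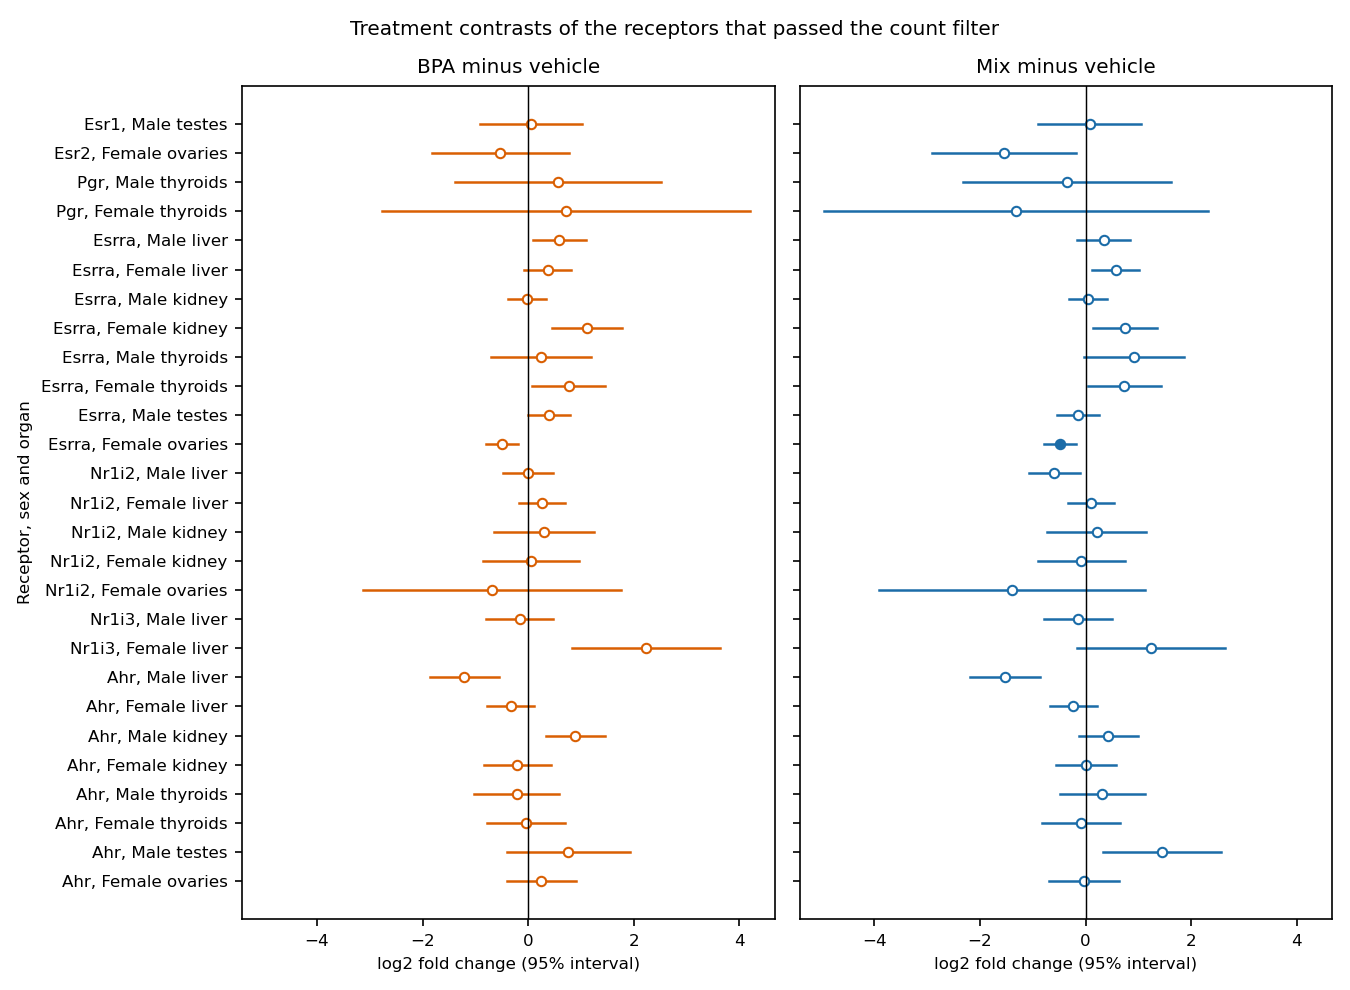
Log2 differences from vehicle for each receptor tested, with 95% intervals, by organ and sex. Points left of 0 are lower with treatment. The ovary Esrra interval for Mix runs from -0.79 to -0.18 and the male liver Ahr interval from -2.19 to -0.87.

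Mix was set against BPA at the same total dose in 8 pairs of groups. Each of BPA, BPF and BPS is a pair of phenols, joined through an isopropylidene, a methylene and a sulfonyl bridge respectively, and only BPA is present in both treatments. Of 27 receptor tests edgeR called 0 and DESeq2 called 0, with 2 (7.41%) at an unadjusted p under 0.05, against 10.7% of all gene tests. These were testis Esrra at -0.55 ± 0.19 log2 (adjusted p = 0.162) and male liver Nr1i2 at -0.59 ± 0.23 (adjusted p = 0.728). The intervals leave room for differences: Mix minus BPA ran from -0.98 to 0.34 for male liver Ahr, from -2.38 to 0.34 for ovary Esr2, from -2.31 to 0.31 for female liver Nr1i3 and from -0.29 to 0.32 for ovary Esrra. Over all genes Mix and BPA differed for 2.93% in male kidney, 0.0103% in male liver, 0.775% in testes, 0% in male thyroids, 0% in female kidney, 0% in female liver, 0.212% in ovaries and 0% in female thyroids.

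Averaging the sexes called no receptor in 24 tests of treatment against vehicle, with 8 (33.3%, against 12.3% of all gene tests) at an unadjusted p under 0.05 and 3 called by DESeq2. All-gene shares were 0.339% (BPA) and 0.149% (Mix) in liver, 0.0172% and 0.00858% in kidney, and 0% and 2.18% in thyroids. The 24 tests of a difference between the sexes in treatment response also called none, with 7 (29.2%, against 12.8% of all gene tests) at an unadjusted p under 0.05 and 1 called by DESeq2, kidney Esrra with BPA. Their all-gene shares were 0.209% (BPA) and 0.189% (Mix) in liver, 4.73% and 0.00858% in kidney, and 0% and 0% in thyroids. These shares are edgeR's, and over all genes DESeq2 called 30 to 1519 per comparison in the fits of both sexes, against 0 to 714 with edgeR. Among vehicle rats sex was called for 2 of 12 receptor tests, liver Nr1i3 and kidney Ahr. Of all genes, sex was called for 4.23% in liver, 6.13% in kidney and 0% in thyroids. An unadjusted p under 0.05 was reached by 2 of the 12 (16.7%), against 16.1% of all gene tests.

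The next comparison set organ against organ in vehicle rats. In males, edgeR called 3 of 5 tested receptors between liver and kidney (48% of all genes), 4 between liver and thyroids (58.8%), 3 between liver and testes (78.8%), 2 between kidney and thyroids (51.1%), 4 between kidney and testes (78.4%) and 5 between thyroids and testes (78.1%). In females 2 of 6 were called between liver and kidney (23%), 2 between liver and thyroids (44.3%), 5 between liver and ovaries (32.7%), 2 between kidney and thyroids (27.3%), 2 between kidney and ovaries (21.1%) and 3 between thyroids and ovaries (26.6%). Some of these female tests could not be called, because both organs were at 0. They were Esr2 in each pair among liver, kidney and thyroids, and Pgr in each pair among liver, kidney and ovaries. With the animal as a block, since organs came from the same rats, the female counts became 3 between liver and ovaries, 1 between kidney and thyroids, 2 between thyroids and ovaries and 3 between liver and thyroids, and were 2 for the other two pairs.

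Male Ahr ran from liver to kidney and thyroids to testes. Liver exceeded kidney by 2.72 ± 0.25 log2 (edgeR adjusted p = 9.44e-07), kidney and thyroids differed by 0.14 ± 0.25 (adjusted p = 0.654), and thyroids exceeded testes by 4.25 ± 0.35 (adjusted p = 1.05e-07). Female Ahr ran from liver over kidney (1.57 ± 0.30, adjusted p = 0.00300) and kidney over thyroids (1.56 ± 0.28, adjusted p = 0.00248) to thyroids over ovaries (0.93 ± 0.27, adjusted p = 0.0255, held in 8 of 11 fits with 1 library left out). Scaling bears on liver, whose mean log2 TMM factor lay 1.07 below kidney in males and 0.95 below in females. On library totals alone the liver excess was 1.68 ± 0.28 in males and 0.52 ± 0.40 (adjusted p = 0.320) in females, and thyroids against ovaries had an adjusted p of 0.0557.

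PXR and CAR transcripts both ranked liver first. In males Nr1i2 was higher in liver than kidney by 3.65 ± 0.34 log2 (2.60 ± 0.37 on library totals) and Nr1i3 by 5.64 ± 0.61 (4.60 ± 0.66). In females the liver excess over kidney was 3.54 ± 0.86 for Nr1i2 (edgeR adjusted p = 0.0115) and 2.36 ± 1.73 for Nr1i3 (adjusted p = 0.386). Esrra was highest in the ovary among female organs, by 0.89 ± 0.31 over liver (adjusted p = 0.0439, or 0.0601 with the animal as a block), 1.37 ± 0.36 over kidney (adjusted p = 0.0176) and 1.59 ± 0.31 over thyroids (adjusted p = 0.00355). With 1 library left out these calls held in 5, 9 and all 11 fits respectively, and the ovary was also highest on library totals. Trmt112, whose counts cannot be told apart from those of Esrra, was also highest there. Its plain mean in female vehicle was 454 CPM in ovaries, 129 CPM in liver, 147 CPM in kidney and 244 CPM in thyroids. In males Esrra did not differ beyond its spread between liver and kidney (-0.01 ± 0.23), yet the liver was lower by -1.07 ± 0.24 on library totals (adjusted p = 0.00120), so its place in the male order depends on scaling. Male thyroids held less Esrra than kidney (a kidney excess of 0.74 ± 0.23, adjusted p = 0.0147) and less than testes (-1.01 ± 0.23, adjusted p = 0.00111).

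Genes of the receptors' pathways were read from 8 lists, again chosen with earlier results of these data known. In comparisons with vehicle within a sex, all-gene shares were 6.79% (BPA) and 9.12% (Mix) in the ovary and at most 0.419% elsewhere. Over the 16 comparisons of treatment with vehicle, AHR target genes gave 0 calls in 30 tests, and 7 of the 8 listed were in the table. Cyp1a2, the hepatic P450 under AHR control, held 1334, 804 and 603 CPM in male vehicle liver and 551, 689 and 935 CPM with Mix, a difference of -0.33 ± 0.29 log2 (edgeR adjusted p = 0.935). AHR partners and chaperones gave 1 call up and 1 down in 90 tests. In the ovary Arnt2, an AHR dimerisation partner, rose by 1.70 ± 0.46 with BPA, and Ptges3, the p23 chaperone, fell by 0.52 ± 0.14 with Mix.

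PXR and CAR target genes gave 8 calls up and 2 down in 218 tests. In the ovary with BPA 4 of 11 rose and 1 fell, with a median of 0.51 log2 against 0.01 for all genes. Of all genes, 6.79% were called in the ovary with BPA and 9.12% with Mix. Ephx1, microsomal epoxide hydrolase, rose by 2.13 ± 0.24 with BPA and 2.01 ± 0.24 with Mix, from 26.3 to 34.4 CPM in vehicle to 112.6 to 174 CPM and 98.7 to 173 CPM. Gsta2, a glutathione transferase, rose by 2.88 ± 0.37 and 2.74 ± 0.37, and the transporter Abcb1a rose by 1.04 ± 0.27 and 1.48 ± 0.27. Cyp2c6v1 fell by 4.39 ± 1.21 with BPA, from a mean of 3.27 CPM, and Ugt1a1 fell by 0.82 ± 0.20 with Mix. Hepatocyte marker sums in these ovaries were 218, 388 and 19.2 CPM in vehicle and 17.1, 48.9 and 17.0 CPM with BPA, and their part in the Cyp2c6v1 difference was not tested. Abcb1b rose with BPA by 1.84 ± 0.47. In these ovaries Nr1i2 itself was 0.602, 2.94 and 3.75 CPM in vehicle, 2.06, 2.42 and 0 CPM with BPA and 2.07, 0.132 and 0.478 CPM with Mix, and Nr1i3 was at most 0.608 CPM.

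Estrogen-responsive genes gave 3 calls up and 0 down in 146 tests, all in the ovary. There 6.79% of all genes were called with BPA and 9.12% with Mix. Prlr, the prolactin receptor, rose by 0.82 ± 0.18 log2 with BPA and by 1.27 ± 0.18 with Mix, and Ctsd, the lysosomal protease cathepsin D, rose by 0.65 ± 0.17 with Mix. Progesterone receptor target genes gave 0 up and 4 down in 94 tests. Ctsl and Runx1 fell in the ovary with Mix by 0.70 ± 0.14 and 1.98 ± 0.44. The remaining pair of calls was Zbtb16 in male liver, where Pgr had at most 2 counts in a library: Zbtb16 fell by 2.64 ± 0.43 with BPA and 4.83 ± 0.51 with Mix. ERR target genes, mitochondrial enzymes for the most part, gave 1 call in 158 tests, Idh3a in the ovary with BPA (0.54 ± 0.14), with the median of the list at -0.03 there and at 0.01 with Mix.

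Target genes of CAR and PXR differed by sex in both directions in vehicle liver. Of 19 tested, 3 were higher and 3 lower in females, where 4.23% of all genes were called. Cyp3a18 and Cyp3a2, male-predominant P450 genes, were lower by -5.47 ± 0.78 and -4.42 ± 0.49 log2, and Gstm1 by -1.94 ± 0.23. Cyp3a9, a female-predominant P450, was higher by 2.45 ± 0.40, and Abcc2 and Cyp2c6v1 were higher by 1.07 ± 0.26 and 1.15 ± 0.31. In vehicle kidney 3 of 10 estrogen-responsive genes were lower in females, Tff3 by -3.96 ± 0.47, Agt by -2.29 ± 0.35 and Prlr by -2.23 ± 0.31. Of all genes 6.13% were called there.

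Genes that tracked each receptor most closely over the 70 libraries were found by Pearson correlation of log2(CPM + 1) among 13130 rows, as a description of libraries that share organs. Nr1i2 was closest to Abcc2 (r = 0.966), Creb3l3 (0.964) and Acsm1 (0.962), and Nr1i3 to Serpina4 (0.919), Serpina3m (0.918) and Ugt2b17 (0.916). Ahr was closest to Adi1 (0.907), Slc25a42 (0.896) and Fitm2 (0.894). Esrra was closest to Trmt112 (0.942), then Prkaca (0.814) and Gnb1 (0.813). The scarce receptors followed genes of the organ that held their counts: Esr2 was closest to Npm2 (0.934), H1foo (0.922) and Amh (0.918), Esr1 to Fbxl7 (0.908), Wfdc6a (0.904) and Glb1l3 (0.904), Pgr to Sult1d1 (0.817), Prss33 (0.815) and Tulp1 (0.815), and Esrrg to Cubn (0.820), Csf2rb (0.814) and Slc4a9 (0.813).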

How the data were processed

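Total RNA was extracted and 3′ mRNA tag libraries were prepared with a QuantSeq kit, per the labels' protocols. The authors deposited 1 table of whole-number read counts per gene for 70 libraries, per the file headers, and 0 other sample columns were present. The submitters' processing notes name FastQC, Bowtie2, bedtools, edgeR and the rn6 build, with no versions, and the handling of strand and of overlapping genes is not given in the sources used here. Rows repeating a symbol numbered 316. Counts were tested with edgeR 4.0.16 (R 4.3.3): filterByExpr, TMM scaling, quasi-likelihood fit and Benjamini-Hochberg adjustment over all genes tested, with a threshold of 0.05. One fit covered each organ and sex (3 treatments), 1 each organ of both sexes, and 1 the vehicle organs of each sex. SEs are the log2 difference divided by the root of F, and 95% intervals are unadjusted. The fitting step was tested on simulated data.

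The receptors and lists were chosen with earlier results of these data known. Genes named from a list were up to 4 per comparison by smallest p among those called. Other genes (Cyp2b1, Cyp2b2, Abcc3, Ephx1 and Cyp1a2 in liver, and Trmt112, Gsk3b and Tomm40l as overlapping neighbours) were chosen after their values were seen. Animal codes in the sample descriptions tie organs to rats, which gives the animal block of the organ fits. The labels do not say that replicates are separate litters, so p-values measure only the spread between these libraries. No pair of replicates agreed within sampling noise (lowest chi-square per degree of freedom 8.80 over 68 pairs). The alternatives were DESeq2 1.42.0, its size factors in edgeR, no filter, a filter of 1 CPM in 3 libraries, ribosomal RNA rows removed or their share as a covariate, a replicate block, library totals, plain CPM, and each library left out. Sequences came from RefSeq GRCr8 tables, whose coordinates were not mixed with rn6.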

Additional observations from a re-analysis of the deposited data

Results flagged for a closer look

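Treatment effects that differed between the sexes by edgeR's interaction test were found for 5 genes of the pathway lists, in 6 results. Of all genes, the same test called 0.209% for BPA and 0.189% for Mix in liver, and 4.73% for BPA in kidney. In liver, Nr0b2 (SHP, a repressor in bile acid feedback) differed by 3.51 log2 for BPA (adjusted p = 3.55e-05): its mean went from 51.5 to 16.6 CPM in males and from 7.63 to 27.9 CPM in females. For Mix the Nr0b2 difference was 2.37 (adjusted p = 0.00350), with treated means of 38.5 CPM in males and 29.8 CPM in females. Zbtb16, a progesterone-responsive transcription factor, differed for Mix by 4.69 (adjusted p = 0.00503), from 25.2 to 0.882 CPM in males and from 10.5 to 9.62 CPM in females.

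In kidney with BPA, Ephx1 differed by 1.60 (adjusted p = 0.0156), from 300 to 179 CPM in males and from 100 to 180 CPM in females. Hnf4a, a receptor of tubular and hepatic epithelium, differed by 1.40 (adjusted p = 0.0217), from 527 to 346 CPM in males and from 266 to 457 CPM in females. Nr2f1, the receptor COUP-TF1, differed by -2.66 (adjusted p = 0.0174), from 9.83 to 24.2 CPM in males and from 25 to 9.54 CPM in females. The ribosomal RNA share of these libraries averaged 2.58% in male vehicle, 30.2% in male BPA, 28.2% in female vehicle and 19.1% in female BPA kidneys, and its part in these results was not tested.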

How the results depend on the processing

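Among receptor differences with an unadjusted p under 0.05, female thyroid Esrra with Mix turned in direction (-0.11 log2 with the ribosomal RNA share as a covariate). Smaller differences also changed sign with 1 library left out, such as male kidney Nr1i2 with BPA (-0.50 to 0.59), testis Esr1 with BPA (-0.31 to 0.27) and male thyroid Pgr with Mix (-0.95 to 0.35). DESeq2 called 1 receptor in place of 0 for BPA against vehicle in male kidney, male liver, female kidney, ovaries and the mean of both livers, for Mix in male liver and the means of both livers and both thyroids, and for the BPA interaction with sex in kidney, and 4 in place of 2 between male kidney and thyroids. With no low-count filter the count was 1 in place of 0 for BPA in male liver, female kidney and female liver (Nr1i3, adjusted p = 1.37e-05), for Mix in male liver and the mean of both livers, and for the BPA interactions in liver and kidney, 2 for BPA in the mean of both livers, and 0 in place of 1 for Mix in ovaries. The Mix call in ovaries was also lost, to 0, with a filter of 1 CPM in 3 libraries and with the ribosomal RNA covariate, which gave 1 in place of 0 for female kidney with BPA and with Mix and for Mix minus BPA in testes. DESeq2 size factors in edgeR gave 1 for BPA in ovaries, and removing ribosomal RNA rows gave 1 there and for the kidney BPA interaction. The labels' replicate numbers did not pair libraries (correlations from -0.387 to 0.233 over 69 pairs, median -0.0165, 10 over 0.1). The replicate block gave 1 in place of 0 for BPA in ovaries (adjusted p = 0.0398) and changed no other receptor count by over 1.5 times. On library totals the counts were 5 between male liver and testes, 1 between female kidney and thyroids and 1 between female liver and kidney. With the animal block they were 1 between female kidney and thyroids and 3 between female liver and ovaries. Leaving out each library in turn gave 0 to 1 calls for BPA in male kidney, testes, female kidney, female liver, ovaries, female thyroids and the mean of both kidneys, for Mix in male liver, female kidney, female thyroids and the means of livers and thyroids, for Mix minus BPA in testes, for the liver BPA interaction and for sex in liver and kidney. It gave 0 to 2 for the kidney BPA interaction and 0 to 0 for Mix in ovaries. Between organs it gave 2 to 4 for male kidney and thyroids, and in females 1 to 4 for kidney and ovaries, 0 to 3 for kidney and thyroids, 1 to 2 for liver and kidney, 2 to 5 for liver and ovaries, 2 to 4 for liver and thyroids and 1 to 3 for thyroids and ovaries. The causes were not tested. Over all genes, the calls in a comparison within an organ and sex ran from 0 to 991, and from 12 to 1423 with DESeq2. In the fits of both sexes they ran from 0 to 714, and from 30 to 1519 with DESeq2. Genes with correlations to the receptors changed in order under a pseudocount of 0.1 CPM or Spearman ranks.

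Depth limits the scarce receptors: Esr2 had at most 25 counts in any library and Pgr at most 41.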

Other observations

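Partners and relatives of the receptors outside the groups described above also changed. RXR partners and coregulators gave 3 calls up and 0 down in 140 tests of treatment against vehicle, all in the ovary. There 6.79% of all genes were called with BPA and 9.12% with Mix. Nrip1, the corepressor RIP140 that is needed for ovulation, rose by 1.11 ± 0.22 log2 with BPA and 0.83 ± 0.22 with Mix (edgeR adjusted p = 0.0133 and 0.0349), from a vehicle mean of 29.8 CPM. Ncoa1, the coactivator SRC-1, rose by 0.92 ± 0.25 with BPA.

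Other nuclear receptors gave 7 calls up and 2 down in 340 tests. Outside the ovary the all-gene shares of these comparisons were at most 0.419%. Nr1d1, the clock repressor REV-ERB alpha, rose with Mix by 2.16 ± 0.25 in male kidney and 3.26 ± 0.50 in male liver, and Nr1d2, its paralog, rose in the ovary by 1.38 ± 0.24 with BPA and 0.98 ± 0.24 with Mix. Time of day at killing is not in the labels. Nr0b1, which encodes DAX1, rose in the ovary with BPA by 2.18 ± 0.56, and Nr5a2, the granulosa receptor LRH-1, fell there with Mix by 0.65 ± 0.16.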
